A study of Mus musculus with 6 samples.

Results

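Collagen chain genes are described here across mouse tail-tip fibroblasts and the cells obtained from them by CRISPR activation, a method in which a Cas9 without cutting activity carries transcriptional activators to the promoters of chosen genes. The chains were chosen by name alone: every row of the gene count table whose symbol is Col, a type number, the letter a and a chain number was taken, which gave 44 genes of 49315 listed. The 6 libraries of polyadenylated RNA all came from tail tip skin of wild type mice. The 2 fibroblast libraries (day 0) came from cells given control lentiviral vectors, the 2 early libraries (day 7) from cells given vectors of the SAM version of CRISPR activation, and the 2 late libraries (day 22) from cells given such vectors and then isolated as colonies, which the labels call cardiac progenitors. Early replicate 2 is labelled as partially reprogrammed, unlike early replicate 1. The sources used here do not give the activated genes, the age of the mice, or whether replicates were separate cultures or animals. The p-values therefore reflect the spread between libraries alone, which may be technical. The late columns were told from the early ones by their names; were that reading wrong, the 2 groups would have to be swapped.

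Collagens are proteins of 3 chains wound into a triple helix, and each chain is encoded by a gene of its own. Chains enter defined trimers: fibrillar chains build the tensile fibrils of skin, tendon and heart, type IV chains form the network of basement membranes, and FACIT chains (fibril-associated collagens with interrupted triple helices) decorate fibril surfaces. Type VI forms beaded filaments around cells, type VII anchors epithelial basement membranes to the dermis, and most of the remaining chains form short-chain networks, multiplexins (the source of endostatin-like fragments) or transmembrane collagens. Col26a1 and Col28a1 were placed in none of these classes. Fibroblasts are the main collagen-producing cells of skin and of the heart's interstitium.

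Total counts per library ranged from 20172874 to 40122999, so that a floor of 3 counts was worth 0.0841 to 0.142 CPM, the usual unit of counts scaled to a common library size. Intervals and floors below cover counting error only. The fibroblast marker genes summed to 11859 and 12212 CPM in the fibroblast libraries, 7425 and 7548 in the early ones and 6108 and 5017 in the late ones, and all 10 had counts in both fibroblast libraries. Vim and Fn1 gave most of each sum, for example 2936 and 4180 CPM in early replicate 1 and 2613 and 3086 in late replicate 1. The alike early sums hide that 7 of the 10 genes were more than 4-fold higher in early replicate 2 than in early replicate 1, and 0 the reverse. The macrophage marker genes (7) summed to 244 and 1051 CPM in the fibroblast libraries against 4.58 and 10.8 in the early ones and 4.08 and 105 in the late ones, and Adgre1 among them stood at 15.7 and 73.7 CPM in the fibroblast libraries and 0 and 0.0472 in the early ones. Epithelial marker genes (6) summed to at most 2.49 CPM in fibroblast and early libraries and to 266 and 82.3 in the late ones. Of these genes 2 of 4 tested rose in late cells, where 0.641% of all tested genes did. Chondrocyte marker genes (7) summed to 43.8 to 117 CPM, in early and late libraries mostly from Sox9; in early cells Sox9 rose and Hapln1 fell. Schwann cell (5), adipocyte (4) and erythroid (4) marker genes summed to at most 10.5, 0.291 and 2.55 CPM, except for 32.5 CPM of adipocyte and 920 CPM of erythroid genes in late replicate 2. Late replicate 2 stood apart: 10.3% of its counts were mitochondrial, against 1.48% to 2.16% elsewhere, and its cardiomyocyte marker genes (7) summed to 44813 CPM, against 71.2 in late replicate 1 and at most 115 in the other 4 libraries. In bulk RNA, fewer cells of a type and less RNA per cell cannot be told apart. The part of these cell type markers in the collagen values was not tested.

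All 44 chains had at least 1 count, and 38 passed the expression filter. The 6 that did not were Col9a1, Col19a1, Col22a1, Col6a4, Col6a5 and Col6a6, and the counts below over tested chains leave them out. Collagen chains together took 1.12% and 2.0% of counts in the fibroblast libraries, 0.456% and 1.63% in the early libraries, and 0.551% and 0.552% in the late libraries (exact binomial 95% intervals at most 0.011 percentage points wide). The near equality of the late libraries depends on the denominator: without mitochondrial genes their shares were 0.559% and 0.615%. The late libraries both lay below both fibroblast libraries, while early replicate 2 lay within the fibroblast range and early replicate 1 had the lowest share of all 6. Fibrillar chains took the largest part of collagen counts in each library, between 53.1% and 75.9%. The next largest class was FACIT in the fibroblasts, at 23.0% and 25.4% of collagen counts, and type IV in the late libraries, at 23.9% and 30.4%. Shares of counts are not corrected for gene length. Col12a1, the chain gene with the most exon bases (15228), gave 19.7% and 23.6% of collagen counts in the fibroblasts. FACIT chains took 2.15% to 6.41% of collagen counts in the 4 libraries given activation vectors. With 2 libraries against 2, an exact two-sided permutation test of such a share cannot go below p = 0.333, so none was run.

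**Figure D1:**
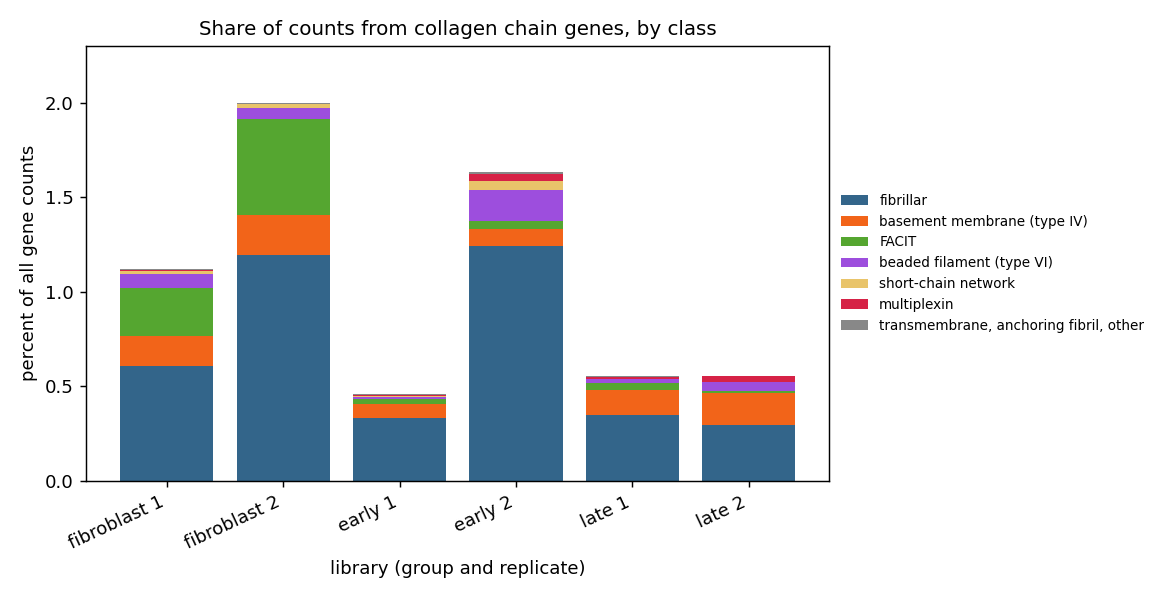
Stacked bars give the percent of all gene counts that fell on collagen chain genes in each library (x axis), split by class. The bars reach 1.12% and 2.0% in fibroblasts, 0.456% and 1.63% in early libraries and 0.551% and 0.552% in late ones, and the FACIT segment is tall only in the 2 fibroblast bars (0.258% and 0.508%).

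Of the 38 tested chains, 2 rose and 3 fell in early cells against fibroblasts, at an adjusted p below 0.05 in edgeR's quasi-likelihood test with Benjamini-Hochberg adjustment over 16688 genes. These 5 chains are 13.2% of those tested, where 1.53% of all tested genes were called (0.695% higher and 0.833% lower). In late cells against fibroblasts 2 chains rose and 5 fell, or 18.4%, where 1.42% of all tested genes were called (0.641% higher and 0.779% lower). An unadjusted edgeR p under 0.05 was found for 16 of the 38 chains in early cells, against 29.8% of all genes. In late cells it was found for 18 of the 38, against 32.5%. Both were above the share of all genes. Col14a1 and Col4a6 rose, and Col12a1, Col24a1 and Col7a1 fell, in both comparisons, which share the fibroblast libraries; Col11a1 and Col10a1 fell in the late comparison. The median log2 fold change of the tested chains was 0.27 in early cells, where that of all tested genes was 0.0038, and -0.62 in late cells, where that of all genes was 0.11; with Col26a1, which had 0 early counts, at its bound, the early median was the same. In early cells 11 chains lay above both fibroblast libraries without overlap (32.3% of all genes did) and 16 lay below (34.4%); in late cells the numbers were 14 (35.7%) and 16 (32.9%). Out of 38 chains, the counts lying above without overlap are thus near the background of all genes. Those lying below are somewhat over it, and the counts called are above it.

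The calls rested on few libraries. Without fibroblast replicate 1, and likewise without fibroblast replicate 2, edgeR called no chain in either comparison, where it called 0 of 17830 and 0 of 17865 genes. Without early replicate 1 it called no chain in early cells and 6 of 18825 genes, and without late replicate 2 it called only Col14a1 in late cells and 8 of 17138 genes. Every called chain kept its direction in each of these fits. DESeq2 called more: 15 of 42 chains in early cells, where it called 21.1% of 18943 genes with an adjusted p, and 19 of 42 in late cells, where it called 24.6%. These included all the chains named above. Beside them were Col10a1, Col11a1, Col15a1, Col18a1, Col23a1, Col2a1, Col4a1, Col4a2, Col4a4 and Col5a2 in early cells. In late cells they were Col11a2, Col13a1, Col15a1, Col16a1, Col18a1, Col25a1, Col26a1, Col4a4, Col5a2, Col6a6, Col8a1 and Col9a3. Below, a chain or gene is said to be called, to have risen or to have fallen by edgeR unless DESeq2 is named.

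**Figure D2:**
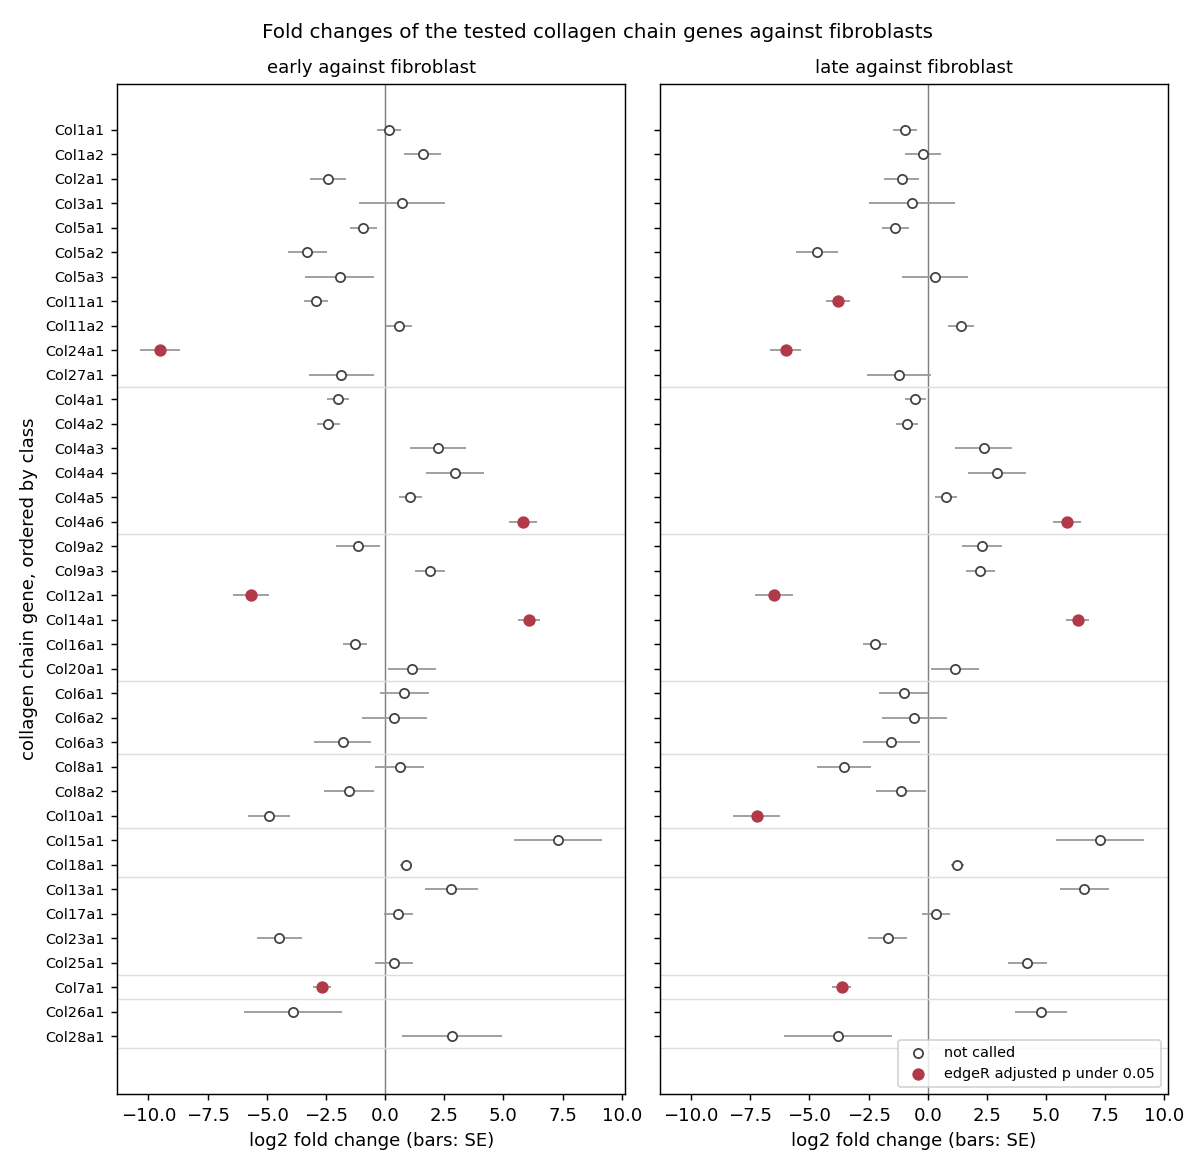
Points give the log2 fold change of each of the 38 tested chains (y axis, by class) in early cells (left) and late cells (right) against fibroblasts, with bars for the standard error (derived from the test's F statistic) and filled points for an edgeR adjusted p under 0.05. There are 5 filled points on the left and 7 on the right, while Col15a1, further from 0 than most of them, is open with a wide bar; the fitted values of Col24a1 and Col26a1 on the left rest on 2 and 0 early counts.

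Between late and early cells edgeR called no chain and 0 of 16688 genes (0.0%). At an unadjusted p under 0.05 there were 12 chains of 38, against 10.2% of all genes. DESeq2 called 8 of 40 chains, Col13a1, Col23a1, Col25a1, Col26a1, Col28a1, Col6a6, Col8a1 and Col9a2, where it called 6.13% of 17704 genes. In late cells 9 chains lay above both early libraries (16.1% of all genes did) and 8 lay below both (17.6%). The median log2 fold change of the tested chains was 0.0441, and that of all genes was -0.0325.

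Among fibrillar chains, 1 of 11 fell in early cells and 2 of 11 fell in late cells, and none rose. Of all tested genes 0.833% and 0.779% fell. An unadjusted edgeR p under 0.05 was found for 4 of 11 in each comparison, near the 29.8% and 32.5% of all genes. The median log2 fold change of the class was -1.84 in early and -1.11 in late cells, where that of all genes was 0.0038 and 0.111. Col1a1 and Col1a2, the chains of type I collagen, stayed abundant. Col1a1 (chromosome 11, 94936224 to 94953042, GRCm38) stood at 1468 and 3290 CPM in fibroblast libraries, 1907 and 3440 in early cells and 1224 and 1206 in late cells. The early values overlapped those of fibroblasts and the late values lay below them; the log2 fold changes were 0.17 ± 0.50 (SE, edgeR adjusted p = 0.855) and -0.97 ± 0.51 (adjusted p = 0.240). Without early replicate 2 or fibroblast replicate 1 the early value of Col1a1 turned negative. Col1a2 stood at 399 and 926 CPM in fibroblast libraries, 765 and 3253 in early cells and 496 and 652 in late cells, overlapping throughout with the fibroblasts. A type I molecule usually holds more of the chain from Col1a1 than of that from Col1a2. Count ratios are of RNA and are not corrected for gene length, so they do not give the proportions of the chains. In early replicate 2, Col1a2 had 262 CPM per kilobase of exon against 524 for Col1a1. Per kilobase of the longest transcript, Col1a2 had 608 against 580 for Col1a1. The ratio of Col1a2 to Col1a1 counts within a library was 0.272 and 0.282 in fibroblasts, 0.401 and 0.946 in early cells and 0.405 and 0.541 in late cells, higher in each of the 4 libraries given activation vectors than in either fibroblast library.

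Col3a1 encodes the chain of type III collagen, the companion of type I in extensible tissues. Its level was 1076 and 1298 CPM in fibroblast libraries, 16.9 and 3881 in early cells and 595 and 896 in late cells. The early libraries thus held both the lowest and the highest value of the 6, 229-fold apart, and the log2 fold change against fibroblasts was 0.72 ± 1.81 in early cells (edgeR adjusted p = 0.827), negative without early replicate 2. Of the 10 fibroblast marker genes, 7 were more than 4-fold higher in early replicate 2 than in early replicate 1, among them Dcn (678 against 3.20 CPM) and Pdgfra (529 against 38.2 CPM). Fn1 (2772 against 4180 CPM) and Vim (2386 against 2936 CPM) were lower in early replicate 2, and the sums over the list were alike, at 7425 and 7548 CPM. Their part in the Col3a1 value was not tested.

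Type V and type XI chains limit fibril diameter and help to start fibrils. Col5a2, an essential chain of type V, was the most abundant chain per kilobase of exon in both fibroblast libraries (242 and 634 CPM per kilobase, where Col1a1 had 224 and 501). In CPM, Col5a2 stood at 2319 and 6076 in fibroblasts, 191 and 670 in early cells and 201 and 126 in late cells. All 4 values after activation vectors lay below both fibroblast values, yet the log2 fold changes of -3.29 ± 0.82 and -4.68 ± 0.88 had edgeR adjusted p-values of 0.0814 and 0.0610. Col5a1, whose product pairs with that of Col5a2, stood at 731 and 953, 206 and 678, and 353 and 302 CPM in the same order, so the count ratio of Col5a2 to Col5a1 was 3.17 and 6.38 in fibroblasts, 0.924 and 0.989 in early cells and 0.569 and 0.418 in late cells. Col5a2 lies tail to tail with Col3a1 on chromosome 1, 24614 bases apart, and the ratio of Col5a2 to Col3a1 counts was 2.16 and 4.68 in fibroblasts, 11.3 and 0.173 in early cells and 0.338 and 0.141 in late cells. Col5a3, the third chain of type V, reached 76.2 CPM in late replicate 2 against 2.70 in late replicate 1 and 31.6 in both fibroblast libraries.

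Col11a1, a chain of the cartilage-type fibrils that is also made by other mesenchymal cells, fell in late cells. It stood at 252 and 483 CPM in fibroblast libraries, 40.8 and 55.8 in early cells and 35.1 and 18.2 in late cells, with no overlap between fibroblasts and the rest. Its log2 fold change was -3.78 ± 0.52 in late cells (edgeR adjusted p = 0.0485) and -2.93 ± 0.50 in early cells (adjusted p = 0.0566). Col24a1, a minor fibrillar chain known from bone (chromosome 3, 145292472 to 145552011), stood at 50.1 and 23.6 CPM in fibroblasts and fell to 1 count in each early library. The fibroblast level was 784 times the early level (2296 against 2 counts, exact 95% interval 217 to 6481), with an edgeR adjusted p of 0.0238. In late cells Col24a1 stood at 0.791 and 0.364 CPM, a log2 fold change of -6.0 ± 0.67 against fibroblasts (edgeR adjusted p = 0.0422). Late and early Col24a1 levels did not overlap, but the difference was not called (edgeR adjusted p = 0.373, called without the filter on low counts). Col2a1, the main chain of cartilage fibrils, was low throughout, at 16.3 and 39.2, 6.27 and 4.11, and 19.8 and 5.92 CPM. Among the 7 chondrocyte marker genes, Sox9 reached at most 116 CPM, Comp 51.9 and Hapln1 12.3, and Acan, Matn1, Matn3 and Chad stayed at or below 2.28 CPM. Col27a1 and Col11a2, the other fibrillar chains, stayed at or below 17.4 and 5.47 CPM. Neither was called by edgeR, while DESeq2 called Col11a2 in late cells.

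**Figure D3:**
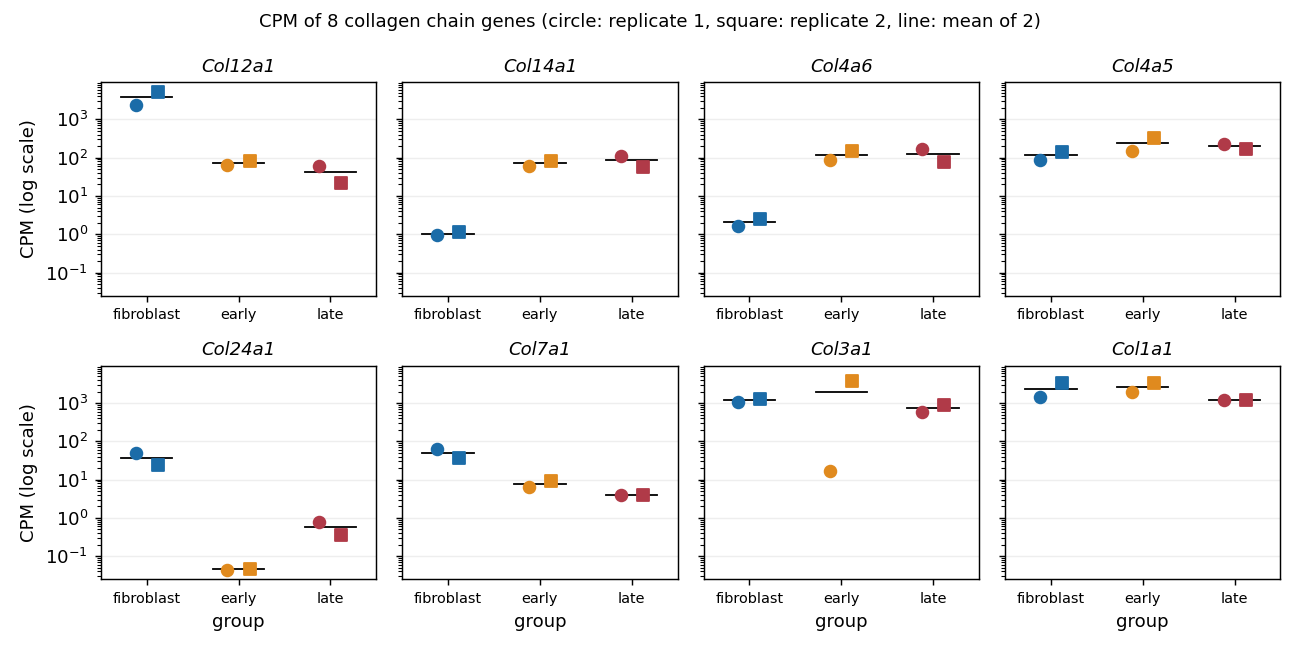
Each panel gives the CPM of a chain (log scale) in the 2 libraries of each group (circle replicate 1, square replicate 2, line the mean of the 2). Col12a1, Col24a1 and Col7a1 are high in fibroblasts and low elsewhere, Col14a1 and Col4a6 show the opposite, Col4a5 and Col1a1 vary little by comparison, and Col3a1 spans 16.9 to 3881 CPM within the early group.

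Type IV chains assemble as fixed trimers, and their genes lie in head-to-head pairs: Col4a1 with Col4a2, Col4a3 with Col4a4, and Col4a5 with Col4a6. The pair on the X chromosome carried the call: Col4a6 rose in early and late cells, and Col4a5 was not called. Col4a6 (chrX:141165403-141474076, minus strand) and Col4a5 (chrX:141475385-141689234, plus strand) are 1308 bases apart in the annotation. The stretches before each annotated start are shown because the pair shares this interval and its members had unlike fold changes. They are RefSeq sequences on GRCm38.p6, 250 bases for Col4a6 (chrX:141474077-141474326, minus strand) and 216 bases for Col4a5 (chrX:141475169-141475384, plus strand, with 34 bases inside the annotated gene left out), each written 5′ to 3′ in the direction of its gene. Capitals mark a GC box in its reverse complement CCGCCC in Col4a6, and a CCAAT box in Col4a5. A GC box also lies in the 34 bases of Col4a5 that are left out.
Col4a6: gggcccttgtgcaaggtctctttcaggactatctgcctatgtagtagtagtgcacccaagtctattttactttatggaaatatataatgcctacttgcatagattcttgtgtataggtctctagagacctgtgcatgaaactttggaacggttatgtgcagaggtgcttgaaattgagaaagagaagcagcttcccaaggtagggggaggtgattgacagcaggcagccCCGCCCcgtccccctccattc
Col4a5: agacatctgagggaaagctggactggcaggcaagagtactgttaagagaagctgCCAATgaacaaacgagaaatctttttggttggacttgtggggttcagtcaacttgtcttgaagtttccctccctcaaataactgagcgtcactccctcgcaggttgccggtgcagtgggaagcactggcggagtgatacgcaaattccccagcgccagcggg

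Col4a6 stood at 1.64 and 2.5 CPM in fibroblast libraries, 87.8 and 147 in early cells and 171 and 75.9 in late cells. All 4 values after activation vectors lay far above both fibroblast values, and early and late values overlapped. The log2 fold changes were 5.82 ± 0.60 in early cells (edgeR adjusted p = 0.0332) and 5.89 ± 0.61 in late cells (adjusted p = 0.0364). Its neighbour Col4a5 stood at 85.3 and 144 CPM in fibroblast libraries, 150 and 329 in early cells and 230 and 164 in late cells. Both fibroblast values lay below the other 4, by a small margin, and early and late values overlapped. The log2 fold changes of 1.06 ± 0.48 and 0.78 ± 0.48 were not called (edgeR adjusted p = 0.210 and 0.299). The ratio of Col4a6 to Col4a5 counts was 0.0193 and 0.0174 in fibroblasts, 0.586 and 0.449 in early cells and 0.744 and 0.463 in late cells, so fibroblasts held few Col4a6 counts beside a sizeable Col4a5 level.

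Col4a1 and Col4a2, the chains of the most widespread type IV trimer, had similar levels in each library. Col4a1 stood at 804 and 1038 CPM in fibroblast libraries, 249 and 214 in early cells and 390 and 885 in late cells. Col4a2 stood at 788 and 1148, 184 and 184, and 313 and 749 CPM in the same order. Both chains were lowest in the early libraries without overlap, yet the early log2 fold changes of -1.99 ± 0.45 and -2.40 ± 0.49 were not called (edgeR adjusted p = 0.0751 and 0.0680). The Col4a2 to Col4a1 count ratio was 0.980 and 1.11 in fibroblasts and between 0.739 and 0.858 in the other 4 libraries. The annotated genes overlap by 22 bases at their starts on opposite strands, and the sources used here do not say whether the counting used strand. Late replicate 2, with the higher late levels of both chains, also had the higher endothelial marker sum (647 against 23.1 CPM over 6 genes). Its smooth muscle marker sum was higher too (1825 against 946 CPM over 6 genes), mostly from Des (977 against 6.16 CPM), while Acta2 (716 against 812) and Tagln (34.1 against 109) were lower. In the fibroblast libraries, where both chains were also high, the endothelial sums were 6.57 and 10.5 CPM and the smooth muscle sums 748 and 3175 CPM. In the early libraries the endothelial sums were 1.73 and 1.89 CPM and the smooth muscle sums 131 and 166 CPM. The part of these markers was not tested. Col4a3 and Col4a4, chains of a trimer known from kidney and lung, were scarce, at or below 6.14 and 11.4 CPM. Neither was called by edgeR, while DESeq2 called Col4a4 in both comparisons with fibroblasts.

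Of all RefSeq promoter entries, 32851 in number and read over the 250 bases before the start on both strands, 32.7% held a GC box (GGGCGG), 33.8% a CCAAT box (CCAAT) and 12.4% a TATA box (TATAAA). Among 38 entries for 35 of the collagen chain genes the shares were 57.9% (22 entries), 34.2% (13) and 13.2% (5). The cyclic AMP response element TGACGTCA was in 1.55% of all entries and in 0 collagen entries, the AP-1 motif TGANTCA in 6.75% and 2.63% (1 entry, Col6a1), and the GATA motif AGATAA in 9.99% and 5.26% (2 entries). No motif searched contains another, and a match describes letters only. The genes without an entry were Col12a1, Col14a1, Col1a1, Col22a1, Col26a1, Col2a1, Col4a3, Col5a2 and Col9a3.

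**Figure D4:**
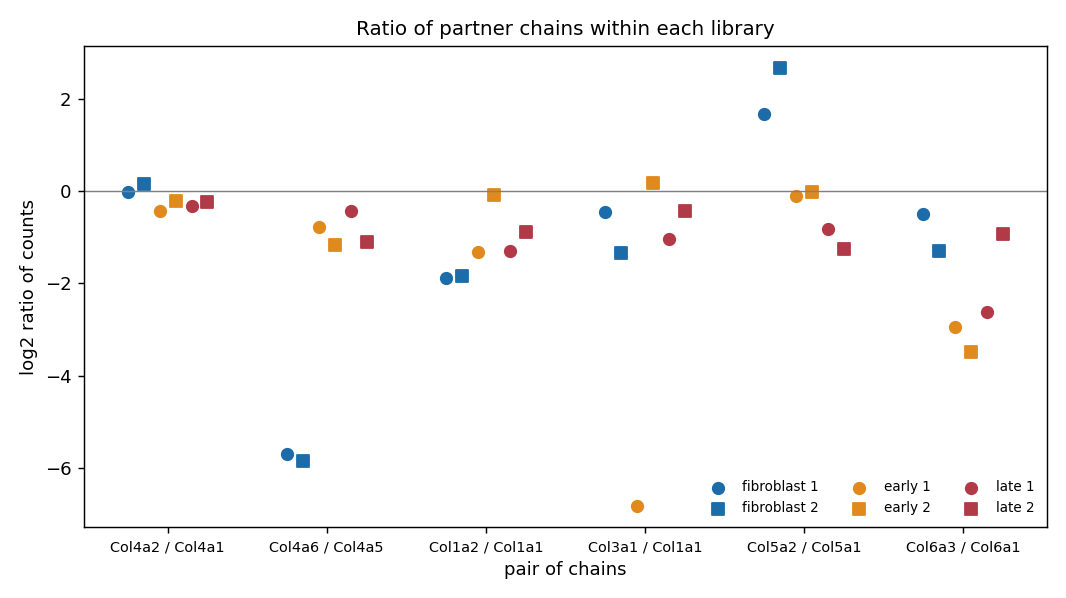
Points give the log2 ratio of counts of 2 chains within each library (x axis, chain pairs), with color for the group and circle or square for replicate 1 or 2; a value of 0 means equal counts. Col4a2 to Col4a1 stays between -0.44 and 0.15, Col4a6 to Col4a5 lies at -5.70 and -5.85 in fibroblasts and at or above -1.16 elsewhere, and Col3a1 to Col1a1 drops to -6.81 in early replicate 1.

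In the FACIT class Col12a1 fell and Col14a1 rose, in early and in late cells. Col12a1 and Col14a1 encode related collagens XII and XIV, which bind the surface of type I fibrils. Col12a1 (chromosome 9, 79598991 to 79718831) stood at 2323 and 5182 CPM in fibroblast libraries, 65.6 and 81.8 in early cells and 61.2 and 21.2 in late cells. It supplied the most collagen counts in fibroblast replicate 1, at 19.7%, and fell by 5.67 ± 0.77 on the log2 scale in early cells (edgeR adjusted p = 0.0457). In late cells it fell by 6.51 ± 0.80 (edgeR adjusted p = 0.0465). Col14a1 (chromosome 15, 55307750 to 55520803) stood at 0.938 and 1.15 CPM in fibroblast libraries, 60.6 and 81.7 in early cells and 113 and 57.0 in late cells. The log2 fold changes of Col14a1 were 6.09 ± 0.48 in early cells (edgeR adjusted p = 0.0221) and 6.34 ± 0.49 in late cells (adjusted p = 0.0304). Col12a1 had 2476 and 4525 times the counts of Col14a1 in the fibroblast libraries, 1.08 and 1.0 times in the early ones and 0.543 and 0.372 times in the late ones. The counts of these genes, not corrected for gene length, were thus near equal in the early libraries and far apart in fibroblasts. Per kilobase of exon, Col12a1 stood at 4.31 and 5.37 CPM in the early libraries, below Col14a1 at 8.64 and 11.6. In the fibroblast libraries the values were 153 and 340 for Col12a1 and 0.134 and 0.163 for Col14a1.

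Col16a1, a FACIT found with fibrils and fibrillin microfibrils, stood at 388 and 403 CPM in fibroblast libraries, 118 and 209 in early cells and 117 and 50.4 in late cells. It was below both fibroblast values in every other library and was not called (log2 fold change -2.24 ± 0.51 in late cells, edgeR adjusted p = 0.0714). The type IX chains, partners of type II collagen in cartilage, stayed at or below 2.12 CPM: Col9a1 had 0 counts in fibroblast and early libraries (which allows up to 0.0881 to 0.142 CPM) and 4 and 7 in the late ones. Col20a1 reached at most 1.98 CPM and lies on the same strand as an annotated gene that stood at 5.02 to 13.3 CPM, so its counts are uncertain. Col22a1 and Col19a1 reached at most 1.37 and 0.0561 CPM.

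**Figure D5:**
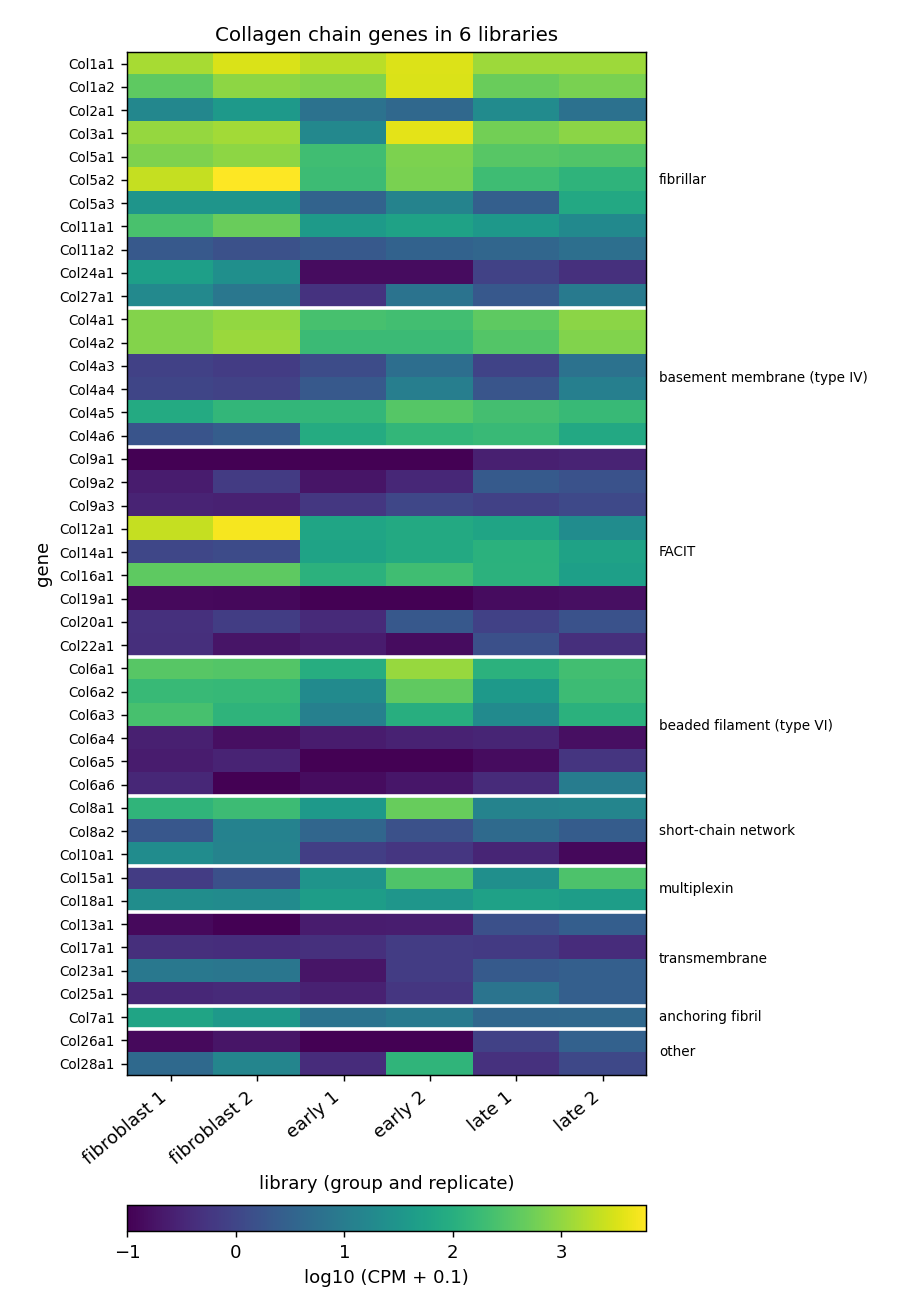
Each row is 1 of the 44 chains, grouped by class, and each column is a library; color gives the CPM on a log10 scale after adding the constant on the color bar. Col14a1, Col4a6 and Col15a1 brighten after fibroblasts, Col12a1, Col24a1, Col10a1 and Col7a1 darken, and early replicate 2 is brighter than early replicate 1 in 14 chains by more than 4-fold.

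Some of the remaining chains differed widely between replicates: Col6a1, Col6a2, Col6a3, Col8a1 and Col15a1 differed more than 4-fold between the early libraries, while Col10a1 and Col18a1 differed 1.41-fold and 1.43-fold. Col6a1, Col6a2 and Col6a3 encode the chains of the classical type VI trimer. Col6a1 stood at 353 and 321 CPM in fibroblast libraries, 93.9 and 1092 in early cells and 117 and 214 in late cells. Col6a2 stood at 170 and 159, 19.0 and 415, and 37.0 and 186 CPM, and Col6a3 at 251 and 131, 12.2 and 97.6, and 19.1 and 113 CPM. None of these 3 tested chains was called by edgeR or by DESeq2 in either comparison with fibroblasts, and 0 had an unadjusted edgeR p under 0.05. The ratio of Col6a3 to Col6a1 counts was 0.713 and 0.407 in fibroblasts, 0.130 and 0.0894 in early cells and 0.163 and 0.526 in late cells. Col6a6, whose product can take the place of that of Col6a3, had at most 7 counts in each of 5 libraries and 368 counts (10.3 CPM) in late replicate 2. Col6a4 and Col6a5 stayed at or below 0.208 and 0.449 CPM.

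Col10a1, the chain of type X collagen known from hypertrophic cartilage, fell in late cells. It stood at 20.7 and 13.7 CPM in fibroblast libraries, 0.667 and 0.472 in early cells and 0.208 and 0.0280 in late cells, without overlap between groups. The log2 fold change was -7.23 ± 1.0 in late cells (edgeR adjusted p = 0.0485) and -4.90 ± 0.88 in early cells (adjusted p = 0.0595). Nt5dc1 overlaps Col10a1 on the opposite strand and stood at 10.8 to 16.1 CPM, so without strand the low Col10a1 counts may hold its reads. Col8a1, a short-chain collagen of vessel walls, stood at 134 and 194 CPM in fibroblast libraries, 38.7 and 464 in early cells and 13.7 and 14.7 in late cells, and was not called (log2 fold change -3.53 ± 1.13 in late cells, edgeR adjusted p = 0.111). Col8a2 reached at most 13.1 CPM.

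The multiplexins Col15a1 and Col18a1 encode collagens of basement membrane zones. Col15a1 stood at 0.603 and 1.38 CPM in fibroblast libraries, 30.4 and 289 in early cells and 24.1 and 286 in late cells. All 4 later values lay above both fibroblast values, but the replicates of each later group differed 9.52-fold and 11.9-fold and the log2 fold changes of 7.32 ± 1.86 and 7.28 ± 1.86 were not called (edgeR adjusted p = 0.0825 and 0.0810). Col18a1 stood at 22 and 20.5, 46.2 and 32.3, and 55.5 and 45.8 CPM, with log2 fold changes of 0.89 ± 0.26 and 1.26 ± 0.27 that were not called (edgeR adjusted p = 0.104 and 0.0663); Slc19a1 overlaps it on the opposite strand.

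Col7a1, the only chain of type VII and the anchoring fibril of the dermal-epidermal junction, fell in both comparisons. It stood at 61.8 and 37.4 CPM in fibroblast libraries, 6.40 and 9.17 in early cells and 3.91 and 4.04 in late cells, with no overlap between groups. Its log2 fold change was -2.67 ± 0.38 in early cells (edgeR adjusted p = 0.0472) and -3.64 ± 0.39 in late cells (adjusted p = 0.0379). The transmembrane chains were scarce, and edgeR called none of the 4, while DESeq2 called Col23a1 in early cells and Col13a1 and Col25a1 in late cells. Col23a1 stood at 8.11 and 7.55 CPM in fibroblast libraries, 0.0889 and 0.614 in early cells and 2.16 and 2.69 in late cells. Col13a1 had 1 count over the fibroblast libraries and 126 over the late ones, a ratio of 135 (exact 95% interval 23.8 to 5367), with an edgeR adjusted p of 0.0556. Col25a1 stood at or below 0.472 CPM before the late stage and at 6.74 and 2.66 CPM in late cells, and Col17a1, the hemidesmosome collagen of keratinocytes, stayed at or below 0.614 CPM. Col28a1 reached 135 CPM in early replicate 2 and 0.311 in early replicate 1. Col26a1 had 0 counts in early libraries and 18 and 104 in late ones, at least 29.7-fold higher against a floor of 3 counts over the early group. It was not called by edgeR with the filter on low counts, while edgeR without the filter and DESeq2 called it between late and early cells.

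The spread between replicates was itself uneven. In early cells 14 of the 38 tested chains (36.8%) differed more than 4-fold between the 2 libraries, all 14 higher in replicate 2, against 11.3% of all tested genes. The same count was 8 chains (21.1%) in late cells, 7 of them higher in replicate 2, against 13.8% of all genes, and 3 (7.89%) in fibroblasts, against 5.61%. The chains called in early cells were not among the uneven ones: Col14a1, Col4a6, Col12a1 and Col7a1 differed by at most 1.68-fold within the early pair, and Col24a1 had 1 count in each. The test itself favours genes with a small spread between replicates, so this adds no support to the calls.

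Genes that modify, cut, cross-link, degrade and sense collagen were counted in 4 lists. For comparison, edgeR called 1.53% of all tested genes in early and 1.42% in late cells against fibroblasts. An unadjusted edgeR p under 0.05 was found for 29.8% and 32.5% of them, and DESeq2 called 21.1% and 24.6% of genes. The median log2 fold changes of all tested genes were 0.0038 and 0.111. Of 23 tested genes for chain modification and folding, edgeR called 0 in early and in late cells (2 and 6 at an unadjusted p under 0.05) and DESeq2 called 1 and 5, with median log2 fold changes of -0.16 in early and -0.66 in late cells. Serpinh1, the collagen-specific chaperone HSP47, stood at 813 and 1146 CPM in fibroblast libraries, 797 and 1133 in early cells and 869 and 825 in late cells, overlapping across all groups. P4hb, a subunit of prolyl 4-hydroxylase, stood at 1147 and 1355, 1145 and 1463, and 900 and 767 CPM, and the late values lay below the rest. P4ha1, P4ha2 and P4ha3 encode the catalytic subunits and Plod1, Plod2 and Plod3 the lysyl hydroxylases, and edgeR called none of them, while DESeq2 called Plod3 in late cells. Crtap, part of the prolyl 3-hydroxylase complex, stood at 251 and 252, 97.2 and 141, and 86.1 and 63.6 CPM and was called by DESeq2 but not by edgeR (adjusted p = 0.0849 in early and 0.0559 in late cells).

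Of 12 tested genes for procollagen cleavage and cross-linking, edgeR called only Pcolce2, which fell in both comparisons. An unadjusted edgeR p under 0.05 was found for 4 in early and 7 in late cells. DESeq2 called 4 and 7 of 13, all lower, among them Loxl2 and Loxl3 in both comparisons and Loxl1 in late cells. Pcolce2, an enhancer of the protease that removes procollagen C-propeptides, stood at 194 and 143 CPM in fibroblast libraries, 4.54 and 6.33 in early cells and 7.32 and 17.7 in late cells. Its log2 fold changes were -4.95 (edgeR adjusted p = 0.0357) and -3.75 (adjusted p = 0.0485), and the related Pcolce was called by DESeq2 alone, in late cells. Lox, which cross-links collagen and elastin, stood at 1140 and 4148 CPM in fibroblast libraries, 219 and 1907 in early cells and 276 and 175 in late cells and was called by DESeq2 alone, in late cells. The class had medians of -0.67 in early and -1.79 in late cells. Of 10 genes for breakdown and uptake, among them Mrc2 and Mmp13, edgeR called 0 (4 and 4 at an unadjusted p under 0.05) and DESeq2 called 2 and 4, with medians of -0.75 and -1.08. Of 8 tested collagen receptors edgeR called 0 (6 and 4 unadjusted) and DESeq2 called 6 and 3, with medians of -1.03 and -1.11. Over all genes the shares were 29.8% and 32.5% at an unadjusted edgeR p under 0.05, and 21.1% and 24.6% by DESeq2. Itga11, the integrin subunit of fibroblasts that binds type I collagen, stood at 42.8 and 77.3, 1.42 and 6.14, and 4.08 and 2.66 CPM (edgeR adjusted p = 0.0679 in early and 0.0645 in late cells), while the receptor kinase Ddr2 stood at 899 and 881, 481 and 387, and 504 and 327 CPM.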

How the data were processed

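The authors deposited raw read counts per Ensembl gene for 6 libraries. Per the submitters' processing notes, the tools were STAR 2.5.2b, Trimmomatic 0.36 and featureCounts from Subread 1.5.2, and the build was GRCm38. How strand and reads with several matches were handled, and with which annotation release, is not given in the sources, so counts of overlapping genes are uncertain. Symbols and positions came from GENCODE M21 (49056 identifiers matched, 259 did not), and promoters from RefSeq. Columns were matched to samples by name.

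The test was edgeR 4.0.16 under R 4.3.3. Its filterByExpr defaults left 16688 genes of 31952 with a count, and TMM scaled the libraries. A robust quasi-likelihood model of the 3 group means was fitted to all 6 libraries, with 3 residual degrees of freedom and a common biological coefficient of variation of 48.6%. Adjusted p-values (Benjamini-Hochberg, threshold 0.05) run over all tested genes. The standard error (SE) was derived from the test, as the size of the log2 fold change divided by the square root of the quasi-likelihood F statistic. CPM use TMM effective sizes, and levels per kilobase use the union of exons. DESeq2 1.42.0 was an alternative.

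The text may name any collagen chain, every called member of the pathway lists, and a fixed selection of those lists. The members, the lists of pathway and marker genes and the tests were chosen with earlier results of these data known. No protein sequences are shown.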

Additional observations from a re-analysis of the deposited data

How the results depend on the processing

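The 5 chains called in early cells against fibroblasts became 15 with DESeq2 (4006 of all genes), 11 without a filter on low counts (2337), 1 (Col24a1) with the replicate number as a block (26), and 0 to 9 when each library was left out (0 to 823 of all genes): 0 without fibroblast replicate 1, fibroblast replicate 2 or early replicate 1, and 9 without late replicate 1 or late replicate 2. The 7 called in late cells against fibroblasts became 19 with DESeq2 (4652), 12 without a filter (2495), 0 with the replicate block (9), and 0 to 9 when each library was left out (0 to 1058 of all genes; 0 chains without either fibroblast library, 1 without late replicate 2). The 0 called between late and early cells became 8 with DESeq2 (1086) and 2 (Col24a1 and Col26a1) without a filter (276), and was 0 without each library. DESeq2 size factors, a filter of 1 CPM in 2 libraries, tables without mitochondrial genes or without collagens in the library size, and a fit that was not robust kept all 12 calls of a chain in a comparison. With the replicate block 11 of the 12 were lost, at edgeR adjusted p-values between 0.049 and 0.0801 over the 12, and without a fibroblast library all 12 were lost, at 0.16 to 0.293; no call changed direction in these alternatives. The replicate numbers were not taken as a pairing, since the labels do not say what they mark and there are 2 numbers only. Deviations of same-numbered libraries from their group means correlated at 0.121 (fibroblast and early), 0.238 (fibroblast and late) and 0.0859 (early and late) across 16688 genes, all positive, which does not settle it. The mean late share of counts from all chains, 0.552%, was 0.587% without mitochondrial genes and 0.542% of the TMM effective size. The 2 late libraries, near equal by all counts, stood at 0.559% and 0.615% without mitochondrial genes and at 0.462% and 0.621% of the effective size. Per kilobase of the longest transcript in place of the union of exons, the mean level of Col1a1 in late cells was 205 CPM per kilobase (185 by the union), that of Col5a2 in late cells 24.7 (17.1), and that of Col12a1 in early cells 6.40 (4.84), and Col3a1 in place of Col1a1 led early replicate 2. Where a library was left out, the lone library of its group was assumed to vary like the other groups. The cause of these differences was not tested. Depth limits the chains at or under 3 counts in a library, such as Col24a1 in early cells.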
